A study of Mus musculus with 10 samples.

Results

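The genes described here are 10 nuclear genes that govern the transcription, copying and amount of the mitochondrial genome: Ppargc1a, Ppargc1b, Nrf1, Esrra, Polrmt, Tfam, Tfb2m, Tfb1m, Polg and Lrpprc. They were chosen by name, as 10 of the 55385 gene identifiers in the tables, and all 10 were found and passed the filter on low counts. The RNA of mouse melanoma cells, grown in culture below confluence, was sequenced in 2 groups of 5 libraries. WT31 is a line from mice with the genotype Tyr::NrasQ61K/°; INK4a-/-, in which the tyrosinase promoter drives mutant NRAS in pigment cells and the Ink4a tumor suppressor is deleted. WT31_P5IV, which the labels also call WT31_Passage_5, is a subline obtained from WT31 by 5 rounds of intravenous injection and regrowth from the liver. The study detected mutant NRAS by PCR in both lines, and the Ink4a deletion of the subline follows from its origin. Both lines were kept in medium with penicillin and streptomycin, and the sources name no other drug given to the cells before RNA was taken. Each group is 1 line, so a difference between the groups is a difference between these lines, and no second passaged line was compared. The libraries of a group are labelled biological replicates, and the p-values measure the spread between those cultures.

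Mitochondria keep a small circular genome that encodes subunits of the respiratory chain together with the ribosomal and transfer RNAs needed to translate them. Its genes are transcribed by a single-subunit RNA polymerase, encoded by Polrmt, which starts at a promoter with the help of the DNA-packaging factor Tfam and the initiation factor Tfb2m. Polg encodes the catalytic subunit of the polymerase that copies mitochondrial DNA, and Lrpprc encodes a protein that binds and stabilises mitochondrial mRNAs. In the nucleus, the transcription factors encoded by Nrf1, Gabpa and Esrra act on many genes of these proteins, and the coactivators encoded by Ppargc1a and Ppargc1b bind such factors. In melanocytic cells, Ppargc1a is a known target of the transcription factor Mitf.

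The libraries held 24825671 to 25750639 estimated counts in WT31 and 24255389 to 25547694 in WT31_P5IV, and the 10 regulator genes had between 69 and 5047 counts per library. Levels are given in CPM, counts scaled to the size of the library by the trimmed mean of M-values (TMM), for comparisons between groups. TPM, the share of all transcripts after correction for length, is used for comparisons between genes. Pigment cell markers summed to 17046 to 18443 CPM in WT31 and to 22228 to 25730 CPM in WT31_P5IV, where Pmel and Dct were higher and Tyrp1 was lower. Of the hepatocyte markers 4 of 9 were at 0 in every library, and the sum of all 9 was 0.707 to 1.11 CPM in WT31 and 0.702 to 1.68 CPM in WT31_P5IV. Alb and Apoa1 were at 0 in every WT31 library and had up to 9 and up to 4 counts in WT31_P5IV. The markers of leukocytes summed to 4.34 to 6.72 CPM, although Cd68 was higher in the subline (1.37 and 3.73 CPM) and Lyz2 was lower (4.33 and 1.08 CPM). The sum was 0.158 to 0.492 CPM for endothelial markers, and for those of stellate cells and fibroblasts it was 1.97 to 2.63 CPM in WT31 and 3.20 to 3.66 CPM in WT31_P5IV. In bulk RNA, fewer cells of a type and less RNA per cell cannot be told apart. The first principal component held 74.5% of the variance and separated the groups.

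As compared to WT31, 9 of the 10 regulator genes differed significantly in WT31_P5IV, 6 of them higher and 3 lower (edgeR quasi-likelihood test, adjusted p under 0.05). The lines differ widely, and 68.5% of all 13620 tested genes passed the same test, 34.6% higher and 33.9% lower. For 7 of the 10 regulator genes, every library of 1 group was above every library of the other, against 54.1% of all tested genes. None of the 10 had an absolute log2 fold change of at least 1, a size that 9.1% of all tested genes reached with the same adjusted p. The median log2 fold change was 0.22 over the regulator genes, which ranged from -0.42 to 0.82, and 0.01 over all tested genes. The regulators thus did not move as 1 block. Both polymerase genes rose most, while Tfb2m, Tfam and Lrpprc fell.

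**Figure D1:**
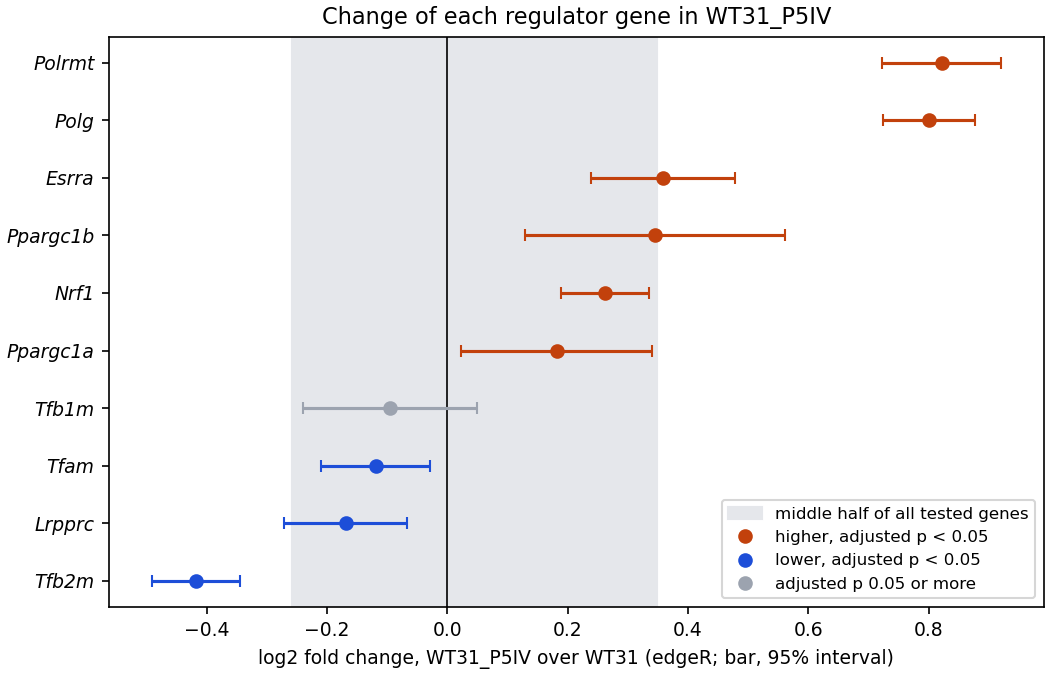
Log2 fold change (horizontal axis, WT31_P5IV over WT31, edgeR) of each of the 10 regulator genes, with bars for the 95% interval and a grey band for the range from the lower to the upper quartile of all tested genes (-0.26 to 0.35). Polrmt at 0.82 and Polg at 0.80 lie to the right of the band, Tfb2m at -0.42 lies to its left, Esrra at 0.36 sits at its edge, and the interval of Tfb1m spans 0.

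The polymerase genes are shown with short stretches of their promoters, because these 2 genes had the largest increases and known regulators of the family bind such letters. Promoters of 9 of the 10 genes were taken from RefSeq on GRCm38.p6, from 250 bases before to 50 after the start. Ppargc1b was left out of this search, so nothing is said of its promoter. In the 9 genes, 5 motifs were searched on both strands. The palindromic GC-rich word bound by NRF1, with A and any base at its centre, was found in 1 of the 9 genes and in 4.60% of 32851 mouse promoters. CCGGAAG, a word bound by ETS factors such as GABPA, was found in 3 of the 9 genes and in 8.86% of the promoters. The lines below are printed 5′ to 3′ on the minus strand, on which all of these genes lie, with the motif or its reverse complement in capitals.
Polrmt, NRF1 word, chr10:79746568-79746597: cctgcaggcgGCGCGTGCGCgtgcgcactg
Polrmt, ETS word, chr10:79746606-79746635: ccctaagagcgCTTCCGGcagtcgcagaac
Polg, ETS word, chr7:79466293-79466322: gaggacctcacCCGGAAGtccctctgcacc
Tfam, ETS word, chr10:71238073-71238102: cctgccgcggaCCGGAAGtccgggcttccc

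In Polrmt, the printed NRF1 word covers bases -6 to 3 around the start site, which is counted as 0, and an overlapping match covers bases 0 to 9. The ETS words begin at base -43 in Polrmt, at -38 in Polg and at -47 in Tfam. The other motifs searched were AAGGTCA for ESRRA, in 4.72% of all promoters, TGACGTCA for CREB, in 1.79%, and CACGTG, the E-box that MITF and MYC bind, in 7.15%. None of these 3 was found in the 9 genes. Esrra, Lrpprc, Nrf1, Ppargc1a, Tfb1m and Tfb2m held none of the 5 words in this window. Genes that rose, Polrmt and Polg, and Tfam, which fell, thus both carry the ETS word, and a match of letters does not show binding.

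Of the coactivator genes, Ppargc1b rose slightly, the call for Ppargc1a depended on the setting, and Pprc1 did not pass the test. Ppargc1a (ENSMUSG00000029167.13, chr5:51454250-51567726) encodes PGC-1α, which raises mitochondrial gene expression when recruited by nuclear receptors and NRF factors. It was measured at 24.4, 27.3, 27.02, 24.5 and 21.3 CPM in WT31 and at 27.6, 30.2, 27.8, 24.6 and 31.1 CPM in WT31_P5IV. The groups overlapped, with WT31_P5IV replicate 4 among the WT31 libraries. The means were 24.9 ± 2.41 and 28.3 ± 2.56 CPM, respectively (SD, n = 5 each), with a log2 fold change of 0.18 (SE 0.07, 95% interval 0.02 to 0.34, adjusted p = 0.0409 by edgeR). This call was lost in 12 of 20 alternative settings, among them 7 of the 10 fits that left out 1 library. Without WT31 replicate 5 the log2 fold change itself was smaller, at 0.12 (adjusted p = 0.134). It was 0.14 without WT31_P5IV replicate 5 (adjusted p = 0.122), 0.15 without WT31_P5IV replicate 2 (adjusted p = 0.107) and 0.16 without WT31 replicate 1 or 4 (adjusted p = 0.102 and 0.0953). Without WT31_P5IV replicate 1 or 3 it stayed at 0.18, and the adjusted p was 0.0621 and 0.0631. On the TPM scale, the means were 6.59 and 6.57 and the difference in log2(TPM + 0.1) was 0.00 (limma, adjusted p = 0.981).

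Ppargc1b (ENSMUSG00000033871.14, chr18:61298136-61400431), the gene of the related coactivator PGC-1β, had the lowest level of the family. Its libraries held 2.86, 3.52, 2.90, 2.71 and 3.48 CPM in WT31 and at 4.00, 3.95, 4.22, 3.92 and 3.59 CPM in WT31_P5IV. All WT31_P5IV libraries lay above all WT31 libraries, by a narrow margin. Ppargc1b rose by a log2 fold change of 0.35 (SE 0.10, adjusted p = 0.00713 by edgeR), which rests on 69 to 105 counts per library. The call was lost in 3 of 20 alternative settings, with log2 fold changes of 0.15 (limma on log2(TPM + 0.1), adjusted p = 0.256), 0.10 (log2(TPM + 1), adjusted p = 0.213) and 0.28 (limma voom without scaling or filter, adjusted p = 0.0737). Pprc1, the third coactivator of the family, averaged 97.8 ± 3.94 CPM in the parental line and 99.1 ± 4.81 CPM in the subline (SD, n = 5), a log2 fold change of 0.02 (SE 0.04, adjusted p = 0.707 by edgeR). Mitf, which acts on Ppargc1a in melanocytic cells, had a log2 fold change of -0.01 (SE 0.06, adjusted p = 0.840 by edgeR), and of -0.20 with limma on log2(TPM + 0.1) (adjusted p = 0.0454). The TPM ratio of Ppargc1a to Ppargc1b within a library was 4.70 in WT31 and 4.20 in WT31_P5IV (geometric means), and the groups overlapped (exact two-sided permutation test, p = 0.270).

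Of the transcription factor genes, both Nrf1 and Esrra rose, and Gabpa fell. Nrf1 (ENSMUSG00000058440.14, chr6:30047988-30153458) encodes nuclear respiratory factor 1, which binds promoters of many genes for mitochondrial proteins. The 5 libraries of each group gave 43.2, 45.1, 45.3, 45.3 and 43.4 CPM in WT31 and at 52.5, 54.0, 52.5, 55.2 and 52.3 CPM in WT31_P5IV. In CPM the groups did not overlap, with a log2 fold change of 0.26 (SE 0.03, adjusted p = 7.90e-06 by edgeR). In TPM they overlapped, and with limma on log2(TPM + 0.1) the difference was 0.08 (adjusted p = 0.210). Nrf1 lies on chromosome 6, where the median log2 fold change over 677 tested genes was 0.28, so Nrf1 differed by about as much as its chromosome. The part of the chromosome in this increase was not tested.

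Esrra (ENSMUSG00000024955.15, chr19:6910977-6921813), the gene of the orphan nuclear receptor ERRα through which PGC-1α acts on respiratory genes, rose as well. Single libraries held 31.6, 28.99, 26.7, 30.1 and 29.8 CPM in WT31 and at 40.0, 34.1, 36.0, 40.3 and 38.3 CPM in WT31_P5IV. Every WT31_P5IV library was above every WT31 library, and the log2 fold change was 0.36 (SE 0.06, adjusted p = 4.87e-05 by edgeR). This call was kept in all 20 alternative settings, at a log2 fold change of 0.15 to 0.39. On chromosome 19 the median log2 fold change of all tested genes was 0.03. Esrra overlaps Trmt112 on the opposite strand by 73 bases, and the strand setting of the quantification is not given in the sources used here. The receptors closest to ERRα were nearly absent. Counts of Esrrb were 0 to 2 in parental libraries and 0 to 1 in those of the subline, and counts of Esrrg were 0 to 1 and 1 to 6, so neither was tested.

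Gabpa encodes the DNA-binding subunit of GABP, also known as NRF2. It fell from 90.2 ± 9.25 CPM in parental cells to 50.1 ± 2.23 CPM in the subline (SD, n = 5), a log2 fold change of -0.85 (SE 0.06, adjusted p = 2.10e-08 by edgeR). It lies on chromosome 16, where the median log2 fold change over 415 tested genes was -0.42. Gabpb1, the gene of a partner subunit of the same complex, rose by a log2 fold change of 0.20 (SE 0.04, adjusted p = 0.000492 by edgeR), but not with limma on log2(TPM + 0.1), where the difference was -0.01 (adjusted p = 0.878).

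**Figure D2:**
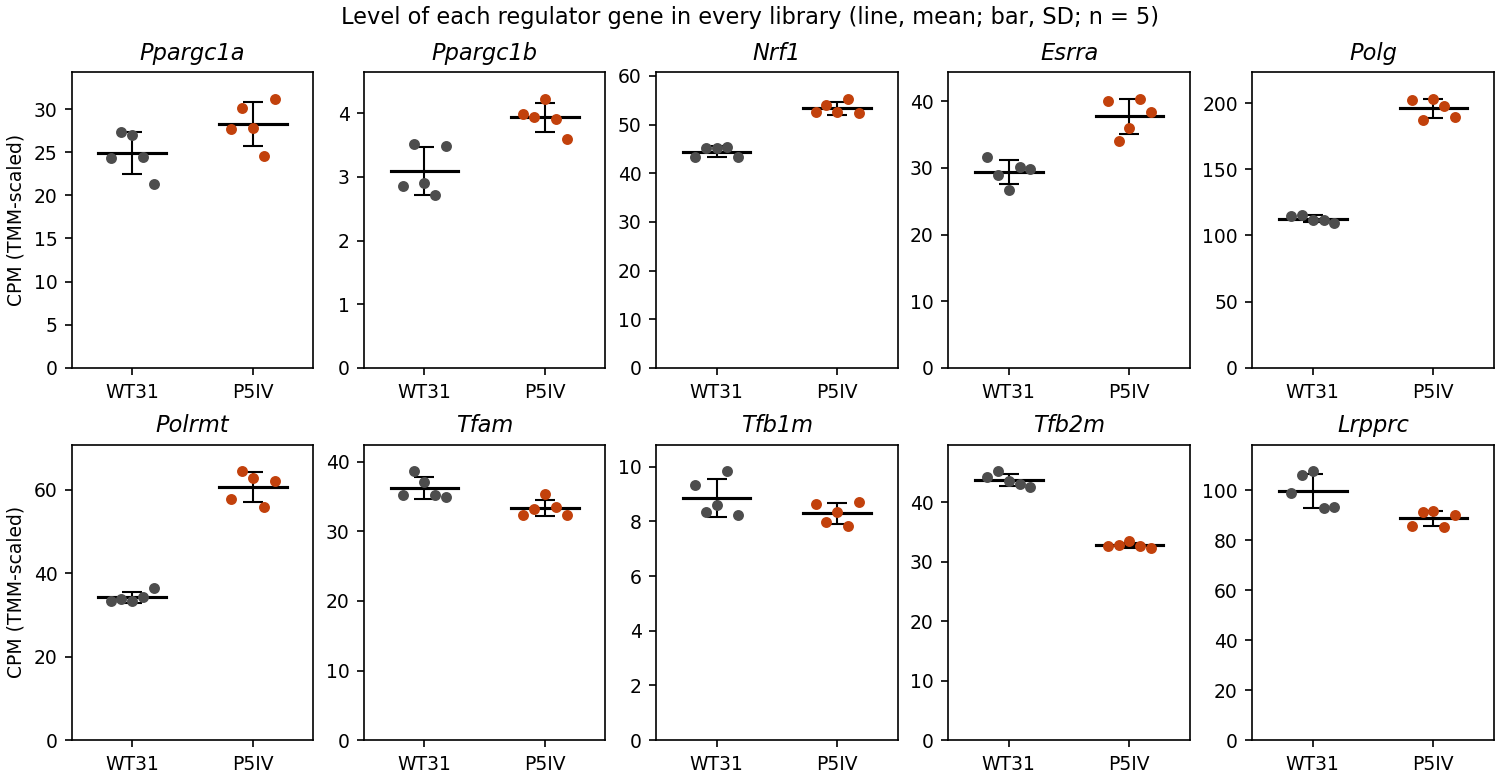
CPM (vertical axes, TMM-scaled, each from 0) of the 10 regulator genes in every library, with points for the 5 libraries of WT31 and of WT31_P5IV (marked P5IV), a line for the mean and a bar for the SD. Polrmt and Polg show the widest gaps, from 34.2 to 60.5 CPM and from 112 to 196 CPM, Tfb2m the clearest fall, from 43.8 to 32.8 CPM, and the points of Ppargc1a, Tfam and Tfb1m overlap.

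The genes of the mitochondrial transcription machinery diverged: the gene of the polymerase rose, and those of its initiation and packaging factors fell. Polrmt (ENSMUSG00000020329.12, chr10:79736123-79746581) was measured at 33.4, 33.8, 33.4, 34.2 and 36.5 CPM in WT31 and at 57.8, 64.3, 62.7, 55.7 and 62.0 CPM in WT31_P5IV. The lowest WT31_P5IV library was far above the highest WT31 library. Polrmt rose 1.77-fold, a log2 fold change of 0.82 (SE 0.05, adjusted p = 1.13e-09 by edgeR), and this call was kept in all 20 alternative settings, at 0.64 to 0.85.

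Tfam (ENSMUSG00000003923.14, chr10:71225464-71238280) encodes the protein that coats and bends mitochondrial DNA. It was measured at 35.2, 38.6, 37.0, 35.3 and 34.97 CPM in WT31 and at 32.4, 33.2, 35.3, 33.4 and 32.3 CPM in WT31_P5IV. Only WT31_P5IV replicate 3 reached the range of WT31. The log2 fold change was -0.12 (SE 0.04, 95% interval -0.21 to -0.03, adjusted p = 0.0223 by edgeR), so its level decreased by 7.91%. The call was lost in 3 of 20 alternative settings, all with the same direction. With upper-quartile scaling the log2 fold change was -0.09 (adjusted p = 0.0571), and with limma it was larger, at -0.21 on log2(TPM + 0.1) (adjusted p = 0.0840) and -0.20 on log2(TPM + 1) (adjusted p = 0.0856).

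Tfb2m (ENSMUSG00000026492.11, chr1:179528055-179546267), the gene of the factor that opens the promoter for the polymerase, had the largest fall of the 10 genes. Its libraries held 44.2, 45.2, 43.7, 43.2 and 42.7 CPM in WT31 and at 32.6, 32.9, 33.5, 32.6 and 32.3 CPM in WT31_P5IV. The groups were far apart, and the libraries of each group lay close together. Tfb2m fell by 0.42 on the log2 scale (SE 0.03, adjusted p = 6.16e-08 by edgeR), so its level decreased by 25.1%. Of its words of 31 bases, 35.9% also occur in other genes on the same strand. Most of these, 35.2% of its words, lie in the pseudogene Gm1818, which was at 0 counts in every library.

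Tfb1m (ENSMUSG00000036983.7, chr17:3519256-3557781) is the paralog of Tfb2m, and its protein methylates the RNA of the small mitochondrial ribosomal subunit. The 5 libraries of each group gave 9.33, 8.33, 8.59, 9.83 and 8.24 CPM in WT31 and at 8.62, 7.98, 8.32, 7.83 and 8.72 CPM in WT31_P5IV. The groups overlapped, and the log2 fold change of -0.09 (SE 0.07, 95% interval -0.24 to 0.05) missed the threshold (adjusted p = 0.226 by edgeR). With limma on log2(TPM + 0.1) its difference was -0.29 (adjusted p = 0.00553). The span of Tfb1m overlaps that of Tiam2, a gene with a mean of 84.9 CPM over all libraries, by 12089 bases on the opposite strand. Of the words of Tfb1m, 6.68% also occur in other genes on the same strand and 8.66% in genes on the opposite strand, and Tiam2 was not among the 3 genes that share most of them. Of these 3, Ccdc82, which shares 3.20% on the same strand, had a mean of 26.04 CPM over all libraries.

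The relation between these genes was also compared within each library, as ratios of TPM, which do not depend on the scaling between libraries. The ratio of Polrmt to Tfam was 0.747, 0.497, 0.567, 0.597 and 0.681 in WT31 and 1.15, 1.22, 1.05, 0.977 and 1.22 in WT31_P5IV. Polrmt was thus below Tfam in every WT31 library. In WT31_P5IV it was slightly below Tfam in replicate 4, at 0.977, and above it in the other libraries. The log2 ratio differed by 0.87 between the groups (exact two-sided permutation test, p = 0.00794, the smallest that 5 against 5 libraries allow; 0.0132 adjusted over the 5 ratios tested). The ratio of Tfb1m to Tfb2m was 0.352 in WT31 and 0.412 in WT31_P5IV (geometric means), with no overlap between the groups and the same p and adjusted p by the exact permutation test.

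**Figure D3:**
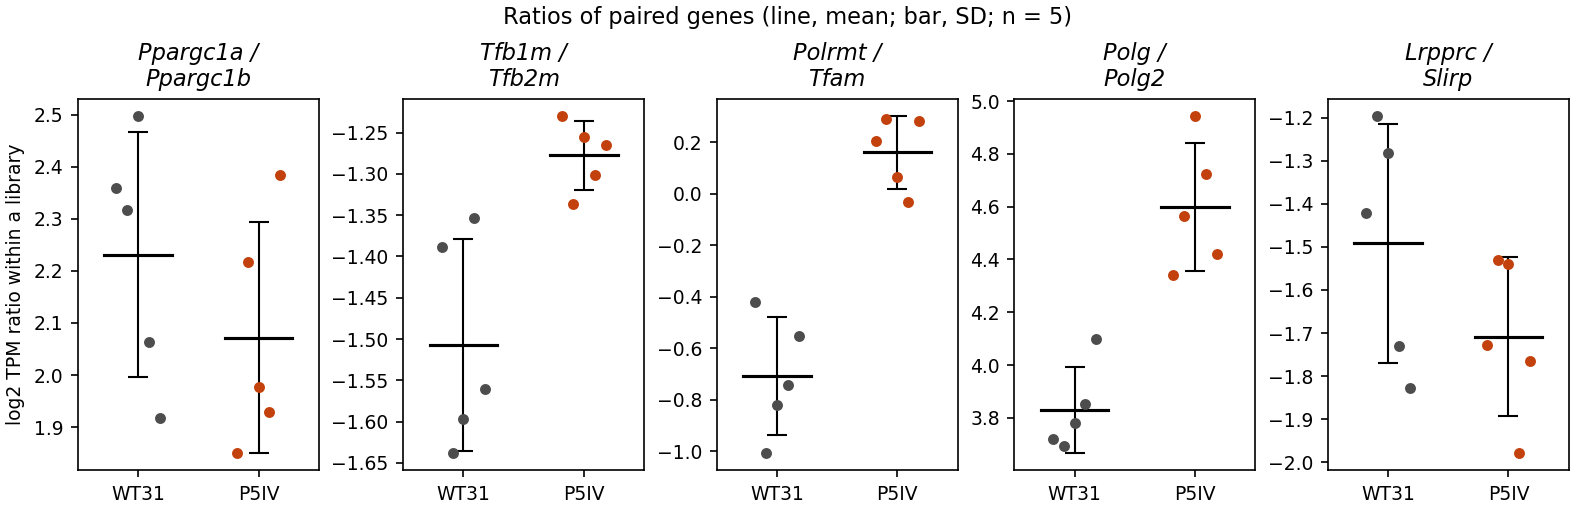
Log2 ratio of TPM of 5 pairs of genes within each library (vertical axes, each on its own scale and not from 0), with points for the 5 libraries of WT31 and of WT31_P5IV (marked P5IV), a line for the mean and a bar for the SD. The groups are apart for Polrmt to Tfam, Polg to Polg2 and Tfb1m to Tfb2m, and overlap for Ppargc1a to Ppargc1b and Lrpprc to Slirp.

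Polg (ENSMUSG00000039176.17, chr7:79446231-79466362), the gene of the catalytic subunit of the mitochondrial DNA polymerase, rose by nearly as much as Polrmt. Single libraries held 115, 115, 112, 111 and 109 CPM in WT31 and at 202, 188, 203, 198 and 189 CPM in WT31_P5IV. All WT31_P5IV libraries were far above WT31, and Polg rose 1.74-fold, a log2 fold change of 0.80 (SE 0.04, adjusted p = 9.48e-11 by edgeR). The call was kept in every alternative setting, at 0.68 to 0.83. Polg overlaps Fanci on the opposite strand and shares 7.41% of its words with other genes there, and Fanci itself averaged 30.7 ± 2.57 CPM in the parental line and 33.7 ± 2.19 CPM in the subline (SD, n = 5; edgeR adjusted p = 0.0621).

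Polg2, the gene of the accessory subunit that clamps this polymerase onto DNA, averaged 3.14 ± 0.172 CPM in the parental line and 3.69 ± 0.571 CPM in the subline (SD, n = 5), a log2 fold change of 0.23 (SE 0.11, adjusted p = 0.0773 by edgeR). The TPM ratio of Polg to Polg2 was 14.2 in WT31 and 24.2 in WT31_P5IV (geometric means), with no overlap (exact two-sided permutation test, p = 0.00794, adjusted p = 0.0132). The difference in the log2 ratio was 0.77 by TPM and smaller, 0.58, by estimated counts. Transcripts of the 2 subunit genes therefore did not keep their ratio. The mean effective transcript length of Polg, which follows from counts and TPM and moves when transcripts of other lengths are used, was 3674 ± 174 bases in WT31 and 3422 ± 64.9 bases in WT31_P5IV (SD, n = 5). It was the single gene of the 10 whose lengths did not overlap between the groups, against 13.4% of all genes with a length (exact two-sided permutation test, p = 0.00794). Fitted over all genes by limma the adjusted p of this difference was 0.115.

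Lrpprc (ENSMUSG00000024120.12, chr17:84705247-84790789) fell slightly. It was measured at 99.2, 106, 108, 92.9 and 93.3 CPM in WT31 and at 85.6, 91.4, 91.7, 85.4 and 90.05 CPM in WT31_P5IV. The groups did not overlap, although WT31 replicates 4 and 5 were close to the highest WT31_P5IV libraries. Lrpprc fell by 0.17 on the log2 scale (SE 0.05, adjusted p = 0.00579 by edgeR), so that its level decreased by 11.02%, and the call was kept in all 20 alternative settings, at -0.32 to -0.14. The largest of these falls was that with limma on log2(TPM + 0.1). Slirp, whose product binds mitochondrial RNA together with the LRPPRC protein, averaged 28.8 ± 3.19 CPM in the parental line and 28.8 ± 2.19 CPM in the subline (SD, n = 5; edgeR adjusted p = 0.984). Since 94.1% of the words of Slirp also occur on the opposite strand, mostly in Snw1 and Alkbh1, its level is uncertain. The TPM ratio of Lrpprc to Slirp overlapped between the groups (exact two-sided permutation test, p = 0.183).

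Within WT31, the libraries were less alike for some of the genes than for others. Lrpprc ranged from 92.9 to 108 CPM and Ppargc1a from 21.3 to 27.3 CPM, while Polg stayed between 109 and 115 CPM. WT31 replicates 2 and 3 held the highest levels of Ppargc1a, Tfam and Lrpprc among the WT31 libraries. These 2 libraries lay apart from replicates 4 and 5 on the second principal component, which held 6.18% of the variance.

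The order of the genes by TPM changed below Polg, which had the highest mean in both groups. In WT31 the highest mean belonged to Polg, with 45.8 ± 1.24 TPM, followed by Tfam with 38.8 ± 5.31, Lrpprc with 36.1 ± 3.29, Tfb2m with 31.1 ± 1.77, Nrf1 with 28.04 ± 2.13, Polrmt with 23.6 ± 1.51 and Esrra with 22.7 ± 1.00 TPM (SD, n = 5). Each of these 7 overlapped with its neighbour in the order. Tfb1m with 10.96 TPM, Ppargc1a with 6.59 TPM and Ppargc1b with 1.40 TPM followed with no overlap.

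In WT31_P5IV, Polg stood alone at 75.9 ± 3.61 TPM, and Polrmt was now the second, at 37.4 ± 3.97 TPM. It overlapped with Tfam at 33.5 ± 4.13 TPM, and the order went on with overlapping ranges through Nrf1 with 29.6, Lrpprc with 28.9, Esrra with 25.3 and Tfb2m with 21.7 TPM. Tfb2m had moved down to the last place of these, and Tfb1m, Ppargc1a and Ppargc1b remained the last 3. TPM is a share of all transcripts, and the share of mitochondrially encoded RNA in it was 14.8 ± 0.912% in WT31 and 24.5 ± 1.48% in WT31_P5IV (SD, n = 5), so a nuclear gene with the same CPM is lower in TPM in WT31_P5IV. The median shift of all genes from the main fit was -0.17 on the log2 scale with log2(TPM + 0.1), under which 3 regulator genes were higher and 3 lower, and 32.9% of all calls were higher as compared to 50.5% in the main fit. The 3 that stayed higher on that scale were Polrmt, Polg and Esrra.

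The RNA made by this machinery was higher in WT31_P5IV. All 13 mitochondrial mRNAs rose, by log2 fold changes from 0.75 to 1.16 with a median of 0.83. The largest increase was in mt-Cytb, the gene of cytochrome b (5963 ± 347 and 13300 ± 1156 CPM in the 2 groups; SD, n = 5), and the smallest in mt-Nd3, a gene of complex I (545 ± 26.5 and 915 ± 47.5 CPM). mt-Nd6, the sole mRNA copied from the other strand, rose by a log2 fold change of 0.75 (SE 0.07, adjusted p = 4.54e-07 by edgeR), and without a known strand setting its reads cannot be told apart from antisense RNA. The ribosomal RNAs differed from the mRNAs and from each other: mt-Rnr1 had a log2 fold change of -0.03 (SE 0.05, adjusted p = 0.552 by edgeR; -0.22 with limma on log2(TPM + 0.1), adjusted p = 0.00168) and mt-Rnr2 of 0.45 (SE 0.07, adjusted p = 2.49e-05 by edgeR). In WT31 they averaged 198 and 909 CPM, as compared to 13852 CPM for mt-Co1. How fully the libraries captured ribosomal RNA was not tested. All 6 of 22 transfer RNA genes that passed the filter rose, led by mt-Ts1 at 1.92 and mt-Tn at 1.90 on the log2 scale. Both of these lie on the minus strand, so the same limit holds for them as for mt-Nd6, and mt-Tn had 14 to 27 counts per library in WT31. The limit was not checked for the other transfer RNA genes. Both genes, at bases 6870 to 6938 and 5089 to 5159, are shorter than the fitted fragment length of 193 bases. Mature transfer RNA and longer RNA therefore cannot be told apart. Mitochondrially encoded genes took 6.64 ± 0.347% of counts in WT31 and 11.9 ± 0.868% in WT31_P5IV (SD, n = 5).

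The nuclear genes around the 10 regulators showed no common direction. Of 25 genes of mitochondrial RNA synthesis and processing, 9 rose, 6 fell and 10 did not pass the test, with a median log2 fold change of 0.00 against 0.01 for all tested genes, whereas 4 were higher and 10 lower with limma on log2(TPM + 0.1). Hsd17b10 and Trmt10c, whose proteins are both subunits of the nuclease that frees the 5′ ends of mitochondrial transfer RNAs, moved apart, at 0.51 (SE 0.05) and -0.67 (SE 0.05) on the log2 scale. Trmt10c lies on chromosome 16. Fastkd2, the gene of a protein needed to assemble the large mitochondrial ribosomal subunit, rose by 0.40 (SE 0.06), and Pde12, the gene of a nuclease that trims mitochondrial poly(A) tails, fell by 0.29 (SE 0.04). Tefm, the gene of the elongation factor of the RNA polymerase, named after its values were seen, had a log2 fold change of -0.20 (SE 0.10, adjusted p = 0.0776 by edgeR).

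Of 18 genes of mitochondrial DNA replication, nucleotide supply and the nucleoid, 8 rose, 2 fell and 8 did not pass the test, with a median log2 fold change of 0.15, whereas 3 were higher and 5 lower with limma on log2(TPM + 0.1). Dguok, which encodes the deoxyguanosine kinase of mitochondria and lies on chromosome 6, rose by 0.56 (SE 0.06) and Dna2, the gene of a helicase and nuclease, by 0.41 (SE 0.05). Rrm2b, the gene of the ribonucleotide reductase subunit that supplies nucleotides outside S phase, fell by 0.90 (SE 0.06), and Lig3, the gene of the mitochondrial DNA ligase, fell by 0.27 (SE 0.05). Of the words of Lig3, 24.3% also occur in other genes on the opposite strand. Twnk, the gene of the replicative helicase, named after its values were seen, averaged 28.6 ± 1.59 CPM in the parental line and 31.4 ± 1.38 CPM in the subline (SD, n = 5), with overlap and an adjusted p of 0.0262 by edgeR, a call lost in 9 of 20 alternative settings. The increase in Polg was therefore larger than that in any of the 8 genes of this list that rose.

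**Figure D4:**
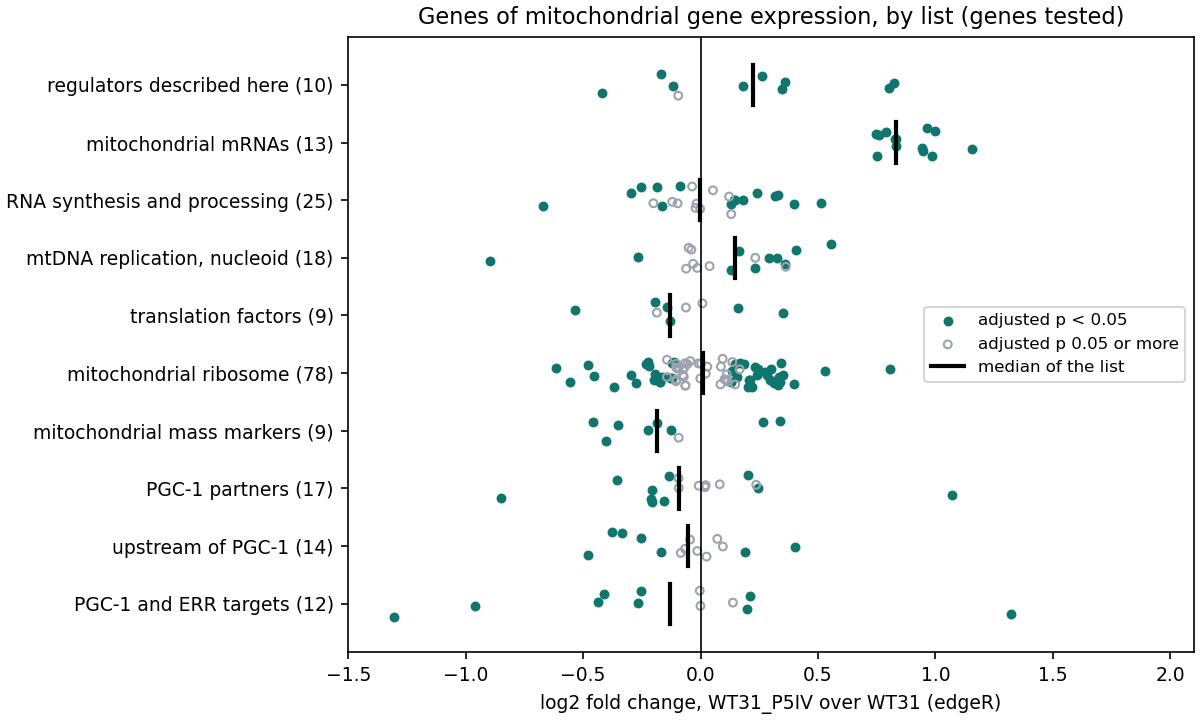
Log2 fold change (horizontal axis, WT31_P5IV over WT31, edgeR) of every tested gene in 10 lists, with the number tested in brackets, filled points for genes with an adjusted p under 0.05, open points for the rest and a bar for the median. All 13 mitochondrial mRNAs lie to the right of 0, at 0.75 to 1.16, whereas each list of nuclear genes has points on both sides, and the medians of those lists lie between -0.19 and 0.22.

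Of 9 markers commonly used for mitochondrial mass, 2 rose, 6 fell and 1 did not pass the test, with a median log2 fold change of -0.19, where 33.9% of all tested genes fell. Without genes that share over 20% of their words with others, 4 fell. Cs, which encodes citrate synthase, the first enzyme of the citric acid cycle, fell from 483 ± 13.8 CPM in parental cells to 365 ± 8.48 CPM in the subline (SD, n = 5; log2 fold change -0.40, SE 0.03, adjusted p = 6.83e-08 by edgeR). Hspd1, the gene of the matrix chaperone HSP60, fell by 0.46 (SE 0.05), with 50.1% of its words shared with other genes. Tomm40, the pore of the outer membrane import complex, rose by 0.34 (SE 0.06) and Immt, an organizer of cristae that lies on chromosome 6, by 0.27 (SE 0.03).

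Among 17 tested partners and modifiers of PGC-1 coactivators, 3 rose and 7 fell, with a median log2 fold change of -0.09, whereas 1 was higher and 8 were lower with limma on log2(TPM + 0.1). Perm1, the gene of a muscle regulator induced by PGC-1 and ERR proteins, rose by 1.07 (SE 0.21) at low levels of 0.649 ± 0.206 and 1.37 ± 0.190 CPM, respectively (SD, n = 5), and Mef2c rose by 0.25 (SE 0.06) with overlap, a call lost with limma on log2(TPM + 0.1) (0.15, adjusted p = 0.248). Gabpa, given above, and Ppard, a nuclear receptor gene for fatty acids, at -0.36 (SE 0.04), had the largest decreases. Of 14 genes upstream of the coactivators 2 rose and 5 fell, with a median of -0.06, whereas 1 was higher and 9 were lower with limma on log2(TPM + 0.1). Crtc2, the gene of a CREB coactivator, rose by 0.40 (SE 0.04). Prkab2, a regulatory subunit gene of AMP-activated kinase, had a log2 fold change of 0.19 (SE 0.07, adjusted p = 0.0280 by edgeR) with overlap, and this call was lost in 13 of 20 alternative settings, among them DESeq2 (adjusted p = 0.0700) and the replicate block (adjusted p = 0.0573). Prkaa1, which encodes the catalytic α1 subunit of that kinase, fell by 0.48 (SE 0.05) and Myc by 0.38 (SE 0.05).

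Of 12 tested targets of PGC-1 and ERR proteins, 3 rose, 6 fell and 3 did not pass the test, with a median log2 fold change of -0.13. With limma on log2(TPM + 0.1), 1 was higher and 7 were lower, and without genes that share over 20% of their words 1 rose and 5 fell. Cat, the gene of catalase, which breaks down hydrogen peroxide, fell from 341 ± 12.7 to 175 ± 6.22 CPM (SD, n = 5; log2 fold change -0.96, SE 0.04), and Ucp2, an inner membrane carrier gene, fell by 1.30 (SE 0.20) from a level of 1.43 CPM. Cpt1b, the muscle form of the enzyme that admits fatty acids to mitochondria, rose by 1.32 (SE 0.13) at 1.84 and 4.61 CPM, with 79.7% of its words shared with the overlapping gene model Gm44502. In TPM the groups of Cpt1b overlapped, at 0.9748 to 2.83 in WT31 and 1.82 to 2.74 in WT31_P5IV, and the difference was 0.71 on log2(TPM + 0.1) (limma, adjusted p = 0.0224) and 0.46 on log2(TPM + 1) (adjusted p = 0.0253). Vegfa, the gene of an angiogenic growth factor, rose by 0.21 (SE 0.05), a call lost in 3 of 20 alternative settings, among them limma on log2(TPM + 0.1) (adjusted p = 0.153).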

How the data were processed

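Total RNA of cultured WT31 and WT31_P5IV melanoma cells was sequenced, with 5 libraries per group. According to the labels and the study's methods, the authors trimmed reads with Trim Galore 0.6.4 and quantified them with kallisto against GRCm38.p6. The version of kallisto is written differently in the processing notes and in the methods and is not given here. The deposited tables hold estimated counts per gene and, separately, TPM per gene made by the authors. No annotation release or strand setting is given in the sources used here. Of 55385 identifiers, 55144 matched GENCODE M21 with the version suffix ignored, and 54487 had the same version. The labels name BGISeq-500 protocols for library preparation.

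Estimated counts were rounded, genes were kept by filterByExpr (13620 genes) and TMM factors were computed. Differences were tested by the quasi-likelihood test of edgeR 4.0.16 (R 4.3.3), with false discovery control after Benjamini and Hochberg across these genes and a threshold of 0.05. The deposited TPM were used for levels between genes, for ratios within a library and, with limma 3.58.1 on log2(TPM + 0.1), as an alternative. Effective lengths are counts over TPM per gene, set to bases by genes with 1 transcript. Single values were compared by exact two-sided permutation tests, whose smallest p is 0.00794 (SciPy 1.17.1). Shared sequence was counted in words of 31 bases of the M21 transcripts, and promoters came from RefSeq (GRCm38.p6). Libraries of 24255389 to 25750639 counts allow precise values for genes such as Polg and less for Ppargc1b.

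Named besides the 10 genes were Polg2, Slirp, Pprc1, Mitf, Esrrb, Esrrg, Gabpa, Gabpb1, mt-Nd6, the mitochondrial mRNAs with the highest and lowest fold change and, from each gene list, the 2 highest and 2 lowest fold changes among genes past the threshold; Gm1818, Fanci, Trmt112, Tiam2, Ccdc82, Cd68, Lyz2, Pmel, Dct, Tyrp1, Snw1, Alkbh1, Gm44502, the ribosomal RNAs, Tefm and Twnk were named after their values were seen. The genes and lists were chosen with earlier results of these data known. The alternatives were DESeq2 1.42.0, limma voom, other scalings and filters, a replicate block and each library left out. On counts simulated for this comparison (13416 genes), 94% of genes changed 1.5-fold and 100% of those changed 2-fold were recovered, with 10 false calls. Only 200 genes were changed in the simulation, far fewer than differ between these lines, and no change below 1.5-fold was simulated. Most of the regulator genes changed by less, so these rates do not cover them.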

Additional observations from a re-analysis of the deposited data

Results flagged for a closer look

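In 4 of 50 groups of 5 values (CPM and effective length of the 10 genes and the ratios), the highest or lowest library stood apart from the rest by Dixon's criterion, of which chance alone marks about 1 in 20 groups. Polrmt had 36.5 CPM in WT31 replicate 5 and 33.4 to 34.2 CPM in the other WT31 libraries, which is still below every WT31_P5IV library. The mean effective length of Ppargc1b was 2734 bases in WT31 replicate 4, with 3463 to 3467 bases in the other WT31 libraries, and 2916 bases in WT31_P5IV replicate 1, with 3430 to 3465 bases in the other WT31_P5IV libraries. The mean effective length of Polg was 3308 bases in WT31_P5IV replicate 4 and 3429 to 3461 bases in the other WT31_P5IV libraries.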

How the results depend on the processing

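Polrmt, Polg, Esrra, Tfb2m and Lrpprc kept their direction and their call in every alternative setting. The count of regulator genes called higher was 3 in each of the limma fits of TPM, with a pseudocount of 0.1 or of 1, where Ppargc1a, Ppargc1b and Nrf1 missed the threshold, and 5 to 6 when 1 library was left out. Nrf1 had a log2 fold change of 0.08 (adjusted p = 0.210) with log2(TPM + 0.1), and Ppargc1b one of 0.15 (adjusted p = 0.256). In the self-test, the fit on TPM recovered 92% of genes changed 1.5-fold. The simulated TPM held no rise in the mitochondrial share and no change in transcript length, so this rate does not cover those differences. Ppargc1a missed the threshold also in limma voom without scaling or filter (adjusted p = 0.323), where Ppargc1b did too (0.0737), with all 31234 genes that had at least 1 count (0.133) and with TMM computed without mitochondrially encoded genes (0.0509). That last setting gives no value for the mitochondrial mRNAs themselves. The cause of these differences was not tested. Over the fits that left out 1 library, all tested genes called were 8965 to 9444. With 1 library left out, the difference in log2 effective length changed sign for Ppargc1a (-0.0132 to 0.0198), Ppargc1b (-0.0528 to 0.0644), Polrmt (-0.0615 to 0.0309) and Nrf1 (-0.0162 to 0.0251), none of which passed the test. Fold changes near 0 changed sign for other named genes. With limma on log2(TPM + 0.1) and log2(TPM + 1) they were -0.00213 and -0.00111 for Prkab2, -0.0200 and -0.0187 for Gfm2, -0.0417 and -0.0320 for Polg2, -0.0110 and -0.0107 for Gabpb1, -0.00942 and -0.00878 for Fanci, and -0.0365 and -0.0344 for Twnk. Slirp was at 0.000663 with the replicate block, 0.000598 with at least 10 counts in every library, 0.0262 with upper-quartile scaling, 0.00222 with limma voom and -0.0560 to 0.0449 with 1 library left out. Pprc1 was at -0.0363 with genes of at least 1 count, -0.0519 with voom without scaling or filter and -0.0133 to 0.0308 with 1 library left out, and Mitf at 0.0152 with upper-quartile scaling and -0.0625 to 0.0206 with 1 library left out. On TPM, Mitf (-0.20, adjusted p = 0.0454) and mt-Rnr1 (-0.22, adjusted p = 0.00168) were called lower. For Tfb2m the p of the length difference, 0.0397 by the exact permutation test, became 0.0556 or 0.0794 in 7 of the 10 fits, and by limma over all genes the adjusted p was 0.204. With limma on log2(TPM + 0.1), Hsd17b10 (0.33), Dguok (0.30), Tomm40 (0.18), Immt (0.14), Mrpl33 (0.30), mt-Rnr2 (0.27), Tufm (-0.33) and Pde12 (-0.46) kept their calls at fold changes that differed by over 1.5 times from those of edgeR, as did Perm1 (0.24) and Ucp2 (-0.51) with log2(TPM + 1).

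The titles of the WT31 samples number the replicates differently from the labels of their files, and every replicate number given here is that of the title. By these numbers, the correlations of same-numbered libraries were low, at -0.01, 0.07, 0.18, 0.08 and -0.10, and 4 of 10 libraries correlated best with their own number. The number expected by chance was not computed, and the numbering of the files was not tried. With the replicate number as a block, 9380 genes were called as compared to 9327 without it, and no call of a regulator gene changed, while Prkab2 was lost and Fanci gained. Low counts, 69 to 105 per library for Ppargc1b and 72 to 108 for Polg2, limit what can be said of these genes.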

Other observations

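Of 78 genes of the mitochondrial ribosome, 27 rose, 19 fell and 32 did not pass the edgeR test, with a median log2 fold change of 0.01. With limma on log2(TPM + 0.1), 8 were higher and 41 lower. Mrpl33 and Mrpl23, genes of the large subunit, rose by 0.53 (SE 0.05) and 0.81 (SE 0.21), the latter with means of 7.62 ± 2.48 and 13.3 ± 2.70 CPM (SD, n = 5) and overlap, a call lost with limma on log2(TPM + 0.1) (0.60, adjusted p = 0.0687). Mrpl39 and Mrps6 fell by 0.61 (SE 0.04) and 0.56 (SE 0.05), and both lie on chromosome 16, where the median log2 fold change was -0.42.

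Of 9 mitochondrial translation factors, 2 rose, 4 fell and 3 did not pass the test, with a median log2 fold change of -0.13. With limma on log2(TPM + 0.1), 0 were higher and 6 lower, and without genes that share over 20% of their words with others 1 rose and 2 fell. Mtif3, the gene of an initiation factor, rose from 11.6 ± 0.741 to 14.8 ± 0.718 CPM (log2 fold change 0.35, SE 0.06), a call lost with limma on log2(TPM + 0.1) (0.09, adjusted p = 0.252), and Gfm2, the gene of a ribosome recycling GTPase, had a log2 fold change of 0.16 (SE 0.06, adjusted p = 0.0220 by edgeR), a call lost in 8 of 20 alternative settings. Mrrf, the gene of the recycling factor that works with it, fell from 20.5 ± 1.02 to 14.1 ± 1.03 CPM (SD, n = 5; log2 fold change -0.54, SE 0.06), and Tufm, which encodes the elongation factor Tu, fell by 0.20 (SE 0.04), with 58.2% of its words shared with other genes. Mtif3 shared 26.7% of its words with genes on the opposite strand. For Mrrf the share was 6.17% on the same and 14.5% on the opposite strand.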
